A study of Mus musculus with 24 samples.

Results

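Embryoid bodies formed by mouse embryonic stem cells that lack both Smad2 and Smad3 were compared with wild-type embryoid bodies after 4 days of differentiation. The comparison was chosen by sample title. It sets the 2 RNA libraries labelled as double knockout against the 2 labelled as wild type at day 4, which are 4 of the 10 RNA libraries of the series, and it covers every gene. All cells derive from E14 (cell line E14Tg2a.IV in the labels), an established male mouse embryonic stem cell line. The wild-type cells carry no stated change, and the genotype of the double knockout is given as Smad2/3DKO. Embryoid bodies are floating aggregates that form when stem cells are suspended in medium without LIF, the cytokine that holds them in the pluripotent state. No ligand or inhibitor is named for the RNA libraries. The other 6 libraries are wild-type stem cells at day 0 and day 4 embryoid bodies of the Smad2 knockout and the Smad3 knockout, 2 of each, and the series also lists 14 chromatin immunoprecipitation samples that were not analysed here. The names of both double knockout libraries carry the same line number, so the double mutation and the history of that line cannot be told apart. Whether both libraries of a group are separate cultures is not stated, so p-values measure only how far these libraries spread, which may be technical.

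Smad2 and Smad3 are the signal carriers of Nodal, Activin and TGF-beta. Activated receptors phosphorylate them, they join Smad4, and the complex reaches its target genes with partners such as Foxh1. In the early embryo Nodal signalling maintains the epiblast, patterns it through the feedback antagonists Lefty1, Lefty2 and Cer1, and induces the primitive streak, from which mesoderm and definitive endoderm arise. BMP signals run through other Smads, Smad1, Smad5 and Smad9, and promote extraembryonic and surface fates.

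The 4 libraries held between 38596824 and 43410154 estimated counts. Levels below are CPM (counts relative to the library total, scaled with edgeR's TMM factors), given in the order replicate 1, replicate 2, and differences are log2 fold changes of double knockout over wild type. A gene was called when its Benjamini-Hochberg adjusted p in edgeR's quasi-likelihood test was under 0.05. Replicates correlated at 0.9878 in the double knockout and at 0.969 in the wild type (Pearson's r across genes, log2 CPM), and the wild-type pair was the most dispersed of the 5 groups. Ribosomal protein genes made up 5.93 and 7.34% of the wild-type counts and 7.01 and 6.38% of those of the double knockout. Mitochondrially encoded genes took 3.19 and 2.15% in the wild type and 1.76 and 1.86% in the double knockout. Both double knockout libraries and wild-type replicate 1 belong to the first of 2 series of file names and wild-type replicate 2 to the second. The labels do not call this a batch, and leaving out wild-type replicate 2 gives the comparison within the first series.

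The targeted genes were still transcribed in the double knockout. Smad2 read 49.9 and 38.3 CPM in the wild type and 22.2 and 22.7 CPM in the double knockout, lower by a log2 difference of -0.98 (SE 0.18, edgeR adjusted p = 0.0047). Smad3 read 42.0 and 44.9 CPM in the wild type and 28 and 25.7 CPM in the double knockout, lower by a log2 difference of -0.69 (SE 0.16, adjusted p = 0.0136). Groups did not overlap at either gene, nor at 59.7% of all genes tested. Reads of an edited transcript are still counted for its gene, so these levels do not check the knockout. On the log2(TPM + 1) scale neither passed (limma adjusted p = 0.14 for Smad2 and 0.114 for Smad3), nor did either in edgeR with the compared groups alone (0.0562 and 0.113). Smad3 also lost its call without either double knockout library (adjusted p = 0.0736 without replicate 1 and 0.12 without replicate 2). Smad4, the shared partner, read 119 and 107 CPM in the wild type and 154 and 141 CPM in the double knockout and was not called (adjusted p = 0.126). Foxh1 read 33.0 and 82.5 CPM in the wild type and 25.1 and 20.9 CPM in the double knockout. Its call (-1.33, adjusted p = 0.0349) was lost without wild-type replicate 2, where the difference was -0.52 (adjusted p = 0.165).

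Genes of the Y chromosome, the X-inactivation RNA and the end of chromosome 18 moved with the double knockout and are given here because they touch the results that follow. The 5 tested genes of the Y chromosome list were all lower. Eif2s3y, a translation factor gene of the Y chromosome, read 75.5 and 50.9 CPM in the wild type and 1.27 and 0 CPM in the double knockout (-6.6, adjusted p = 0.00126), while the Smad3 knockout kept 26.6 and 25.2 CPM and the Smad2 knockout had 0 and 0.064 CPM. Xist, the X-inactivation RNA, was picked after its values were seen. It read 7.52 and 4.35 CPM in the wild type and 74.2 and 104 CPM in the double knockout (3.91, SE 0.34, adjusted p = 0.000104). On chromosome 18, counting genes whose higher group averaged 5 CPM or more, 23 of 31 beyond Smad2 were called lower and 1 higher, with a median of -1.13. Before Smad2, 64 of 251 were higher and 22 lower, with a median of 0.35. Against the Smad3 knockout the same stretches had medians of -0.88 and 0.54. Against the Smad2 knockout their medians were -0.84 and 0.6, in a comparison that depends on the scale, as given below. The plot of chromosome 18 shows the step at Smad2. Values of chromosome 18 and sex-chromosome genes below carry this difference, and its part in their changes was not tested.

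**Figure D1:**
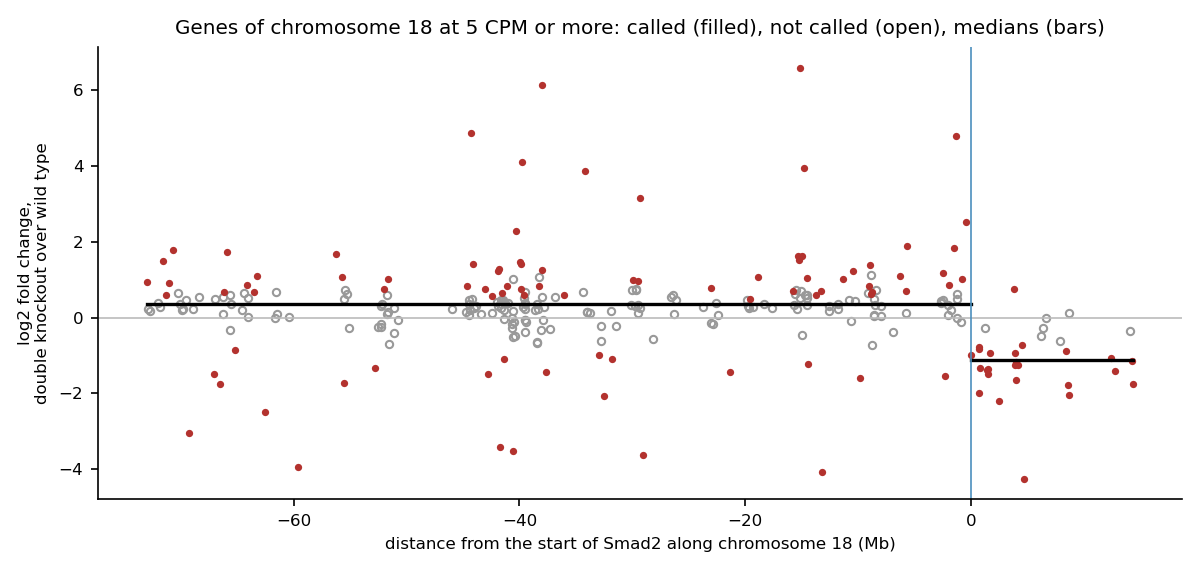
Log2 fold change (double knockout over wild type, day 4) of chromosome 18 genes whose higher group averaged 5 CPM or more, against distance from the Smad2 start in Mb; filled points were called, open points were not, and bars are the medians of 0.35 before and -1.13 beyond Smad2. Most points right of the Smad2 start lie below 0, and those left of it are spread around a median above 0.

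Across the transcriptome, 4506 of 19470 genes tested (23.1%) differed between double knockout and wild type, 2105 higher (10.8%) and 2401 lower (12.3%). The wild-type and double knockout libraries did not overlap at any called gene, nor at 59.7% of all genes tested, called or not. More than 4-fold changes were split nearly evenly, with 787 genes higher and 760 lower, and 219 rose and 165 fell by more than 16-fold. The median over all genes was -0.05. Counts for the gene lists below are to be read beside the shares of 10.8% higher and 12.3% lower. On the log2(TPM + 1) scale the median was 0.13 and the split of calls moved from 46.7% higher to 66.7% higher (2046 higher and 1021 lower). Without 1 double knockout library the count fell to 2126 (replicate 1 left out) and 2166 (replicate 2 left out), and without wild-type replicate 2 it rose to 6051. No called gene changed sign in any alternative on the count scale. The plot of all genes sets these changes against level.

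**Figure D2:**
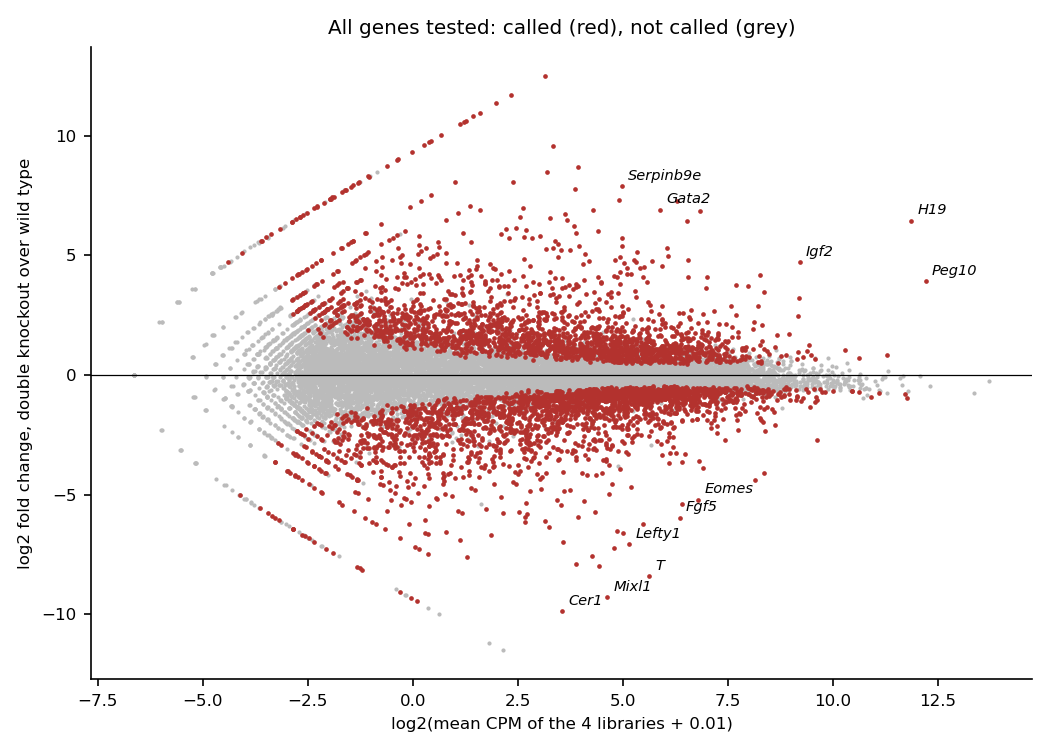
Log2 fold change (double knockout over wild type) against the log2 mean CPM of the 4 libraries plus 0.01, for the 19470 genes tested; red points were called and grey points were not. Cer1, Mixl1 and T mark the lower edge and H19 the upper right; the straight rays at the left are genes at or near 0 counts in 1 group, whose fitted fold change depends on the prior count.

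The feedback antagonists of Nodal were reduced to near 0. Lefty1 (chr1:180935022-180938400, mm10), a secreted inhibitor that Nodal induces against itself, read 37.1 and 103 CPM in the wild type and 0.81 and 0.209 CPM in the double knockout (-7.07, SE 0.67, adjusted p = 0.000156). Its neighbour Lefty2 (chr1:180893108-180899103) read 80.3 and 96.9 CPM against 2.22 and 0.116 CPM (-6.22, SE 0.83, adjusted p = 0.000868). Both were far above these levels in wild-type stem cells at day 0, at 210 and 206 CPM for Lefty1 and 129 and 137 CPM for Lefty2. Nodal itself read 42.1 and 85.3 CPM in the wild type and 11.9 and 8.63 CPM in the double knockout (-2.64, adjusted p = 0.00177). Its co-receptor Tdgf1 read 538 and 425 CPM against 124 and 148 CPM (-1.82, adjusted p = 0.000296). In the double knockout Nodal and Tdgf1 kept a larger share of their own wild-type level than the Lefty genes did. Of the 16 tested ligands, co-receptors and antagonists, 5 were lower and 2 higher, with a median of -1.35. The 2 that rose were Pcsk6, a convertase that matures Nodal (8.67 and 12.6 CPM against 48.4 and 37.8 CPM), and Inhbb, an Activin subunit (0.252 and 0.594 CPM against 1.27 and 1.41 CPM). Inhbb lost its call with the compared groups alone (edgeR adjusted p = 0.072) and without either double knockout library (0.0573 without replicate 1 and 0.0769 without replicate 2). The count of lower members was 8 without wild-type replicate 1 and with DESeq2, and 9 with no filter on low counts.

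Direct and early targets of Nodal fell together. Of 17 tested response genes, 14 were lower and 1 higher, with a median of -4.11, beside 12.3% of all genes lower. Cer1 (chr4:82881751-82885148), a secreted antagonist of Nodal and BMP, read 23.6 and 23.4 CPM in the wild type and 0.0208 and 0.0232 CPM in the double knockout, which is 2 counts in all and a ratio of 1072 (95% counting interval 296 to 8856). Mixl1 (chr1:180693043-180697034), a homeodomain factor of the streak, read 51.3 and 47.1 CPM against 0.104 and 0.0464 CPM (-9.28, SE 1.94, adjusted p = 0.00832). Eomes, a T-box factor needed for streak exit, read 218 and 215 CPM against 6.4 and 5.29 CPM (-5.21, SE 0.6, adjusted p = 0.000449). The wild-type and double knockout libraries lie far apart at all 3 genes. Lhx1, an organizer homeobox gene, read 38.2 and 47.7 CPM against 0.187 and 0.139 CPM (-8.01, adjusted p = 0.000975). Milder falls were found for the feedback regulators Skil (375 and 254 CPM against 104 and 92.5 CPM) and Tgif1 (218 and 194 CPM against 92.6 and 85.0 CPM), which restrain Smad transcription. Bhlhe40 and Smad7 were not called, with log2 fold changes of 0.57 and -0.11. The count of lower response genes stayed between 11 and 14 over the 17 alternatives. The plot of Nodal, streak and epiblast genes by library shows these levels.

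**Figure D3:**
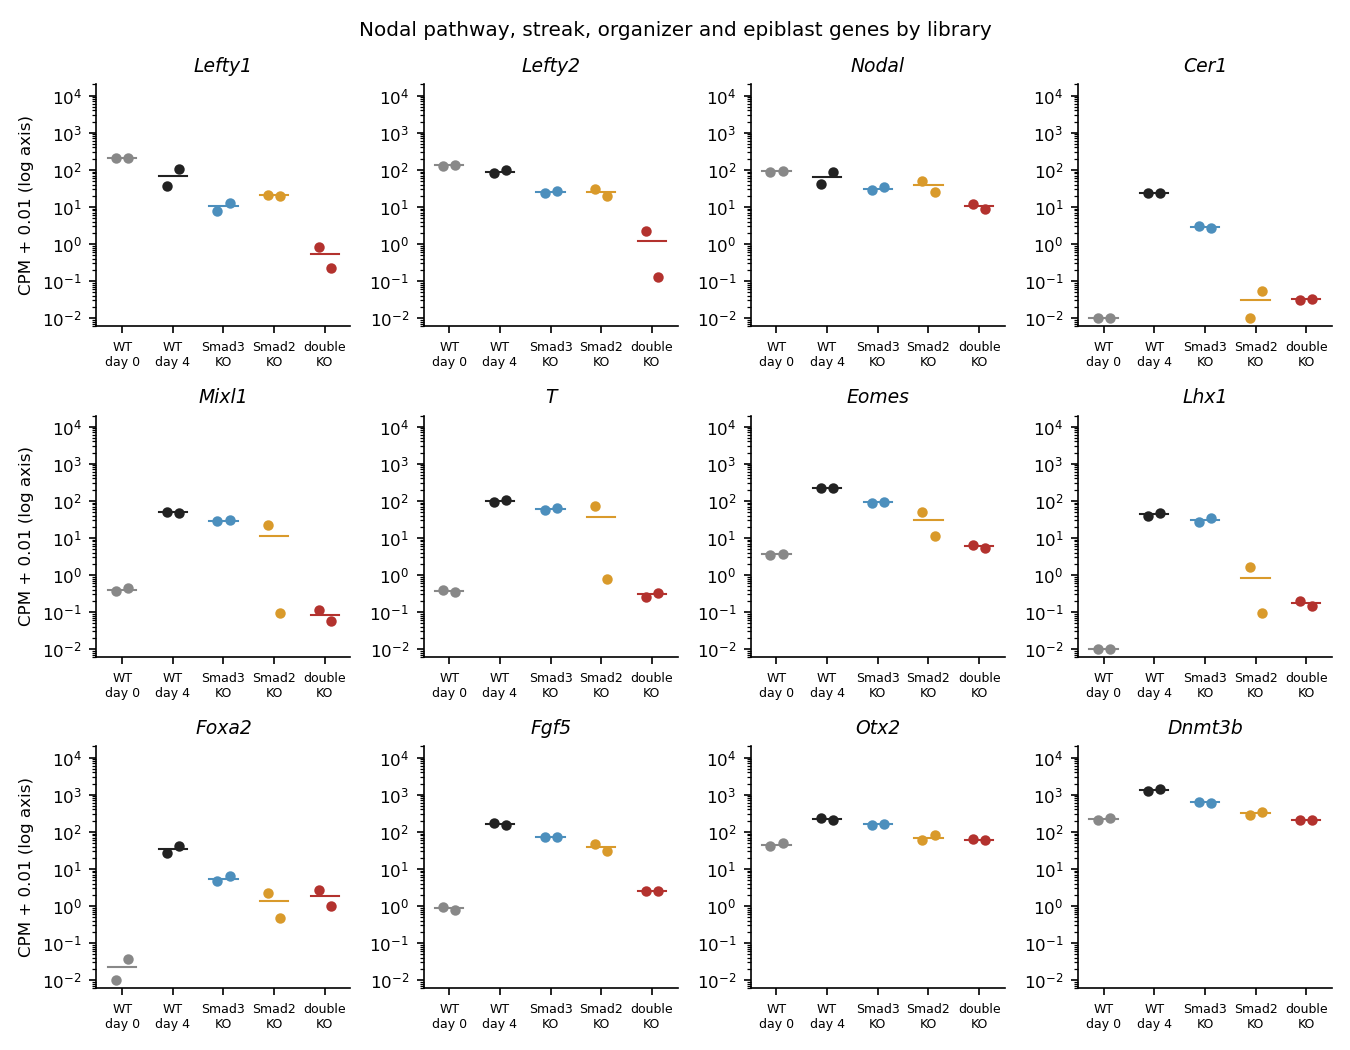
CPM plus 0.01 on a log axis for 12 genes in the 10 libraries; points are libraries and bars are means of the 2 libraries of a group. At Lefty1, Lefty2, Nodal and Fgf5 both double knockout libraries lie below every other day 4 library, while at Mixl1 the lower of the 2 widely spaced Smad2 knockout libraries (0.0854 CPM) lies between them.

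Promoters of Cer1 and Lhx1 are shown because both genes fell to near 0 and both have an entry in the RefSeq promoter table that holds a Smad motif. Each runs 5′ to 3′ on the gene's strand from 250 bases before the start to 50 bases after it, on GRCm38.p6, with the Smad core motif CAGAC in capitals (either strand was searched, and the Foxh1 motif AATNCACA was searched too). Cer1 lies at chr4:82885102-82885401 (minus strand) and has 1 such motif at -213, and Lhx1 lies at chr11:84525485-84525784 (minus strand) and has 1 at -60.
Cer1: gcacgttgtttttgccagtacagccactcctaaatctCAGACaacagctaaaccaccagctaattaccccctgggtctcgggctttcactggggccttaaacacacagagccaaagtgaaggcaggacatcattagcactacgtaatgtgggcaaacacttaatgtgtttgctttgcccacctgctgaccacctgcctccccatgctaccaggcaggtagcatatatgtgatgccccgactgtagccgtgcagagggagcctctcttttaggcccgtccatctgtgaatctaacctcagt
Lhx1: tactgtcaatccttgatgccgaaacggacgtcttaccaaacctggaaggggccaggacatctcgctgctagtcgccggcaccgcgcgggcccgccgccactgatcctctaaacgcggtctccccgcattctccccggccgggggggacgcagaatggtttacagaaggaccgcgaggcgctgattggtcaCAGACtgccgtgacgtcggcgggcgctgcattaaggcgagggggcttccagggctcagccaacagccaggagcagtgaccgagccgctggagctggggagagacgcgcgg
The motif CAGAC was present in 4 of the 7 response genes found in the table and in 49.6% of all 32851 promoters. A list gene counts with a motif at any of its starts, and so counted 53.2% of the 12924 tested genes with an entry had it. The Foxh1 motif was in none of the 7, in 3.6% of all promoters and in 2.8% of those tested genes. Lefty1, Lefty2, Mixl1 and Fgf8 had no entry. A match is a description of these letters in a short window and not a binding site.

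Many genes of the primitive streak and of the organizer, the signalling centre at the tip of the streak, were lower in the double knockout. Of 16 tested streak genes 10 were lower and none higher, with a median of -5.15, and of 16 tested organizer genes 12 were lower and none higher, with a median of -2.15. The lists share Gsc and Lhx1 with each other and with the response list. T (Brachyury), the mesoderm T-box factor, read 90.3 and 106 CPM in the wild type and 0.249 and 0.325 CPM in the double knockout (-8.41, SE 1.71, adjusted p = 0.00735). The double knockout libraries lie far below both wild-type libraries at T and slightly below the day 0 level of 0.388 and 0.342 CPM. Mesp1, which marks the earliest cardiac mesoderm, read 1.21 and 2.88 CPM against 0.0208 and 0 CPM, a ratio of 185 with a counting interval of 32.8 to 7352. The call of Mesp1 was lost with the day 4 libraries alone (edgeR adjusted p = 0.0511), on log2(TPM + 1) (limma adjusted p = 0.101) and without wild-type replicate 2. Fgf8, a streak ligand needed for cell migration, read 16.7 and 59.8 CPM against 0.208 and 0.186 CPM. Mesp1, Fgf8 and Mixl1 also lost their calls without either double knockout library. The differences without replicate 1 and 2 were -9.4 and -6.43 for Mesp1, -7.67 and -7.51 for Fgf8, and -9.97 and -8.85 for Mixl1. The organizer factor Gsc read 2.61 and 14.7 CPM against 0.187 and 0.116 CPM (-5.79, adjusted p = 0.00189). Foxa2, a pioneer factor of axial mesendoderm and endoderm, read 27.1 and 40.4 CPM against 2.74 and 0.997 CPM (-4.17, adjusted p = 0.00268). Sfrp1, a secreted Wnt antagonist, fell from 37.7 and 33.9 CPM to 7.91 and 5.52 CPM. Not called among streak genes were Tbx6, Snai1, Cdx1, Msgn1, Mesp2 and Wnt3a. The Smad2 knockout libraries, which share the fit, differed from each other at these genes (T 74.3 and 0.79 CPM, Mixl1 22.6 and 0.0854 CPM). With the 2 compared groups alone T had an adjusted p of 0.000603 and 10 streak genes were called, but without either double knockout library 3 were, and T was not called (adjusted p = 0.0759 without replicate 1 and 0.0697 without replicate 2).

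Endoderm genes fell less and less evenly. Of 17 tested definitive endoderm genes 10 were lower and 1 higher, with a median of -1.03. Trh, the gene of thyrotropin-releasing hormone, which marks early endoderm, read 427 and 649 CPM in the wild type and 29.3 and 21.8 CPM in the double knockout (-4.4, SE 0.27, adjusted p = 2.59e-05). Foxa1 read 2.61 and 2.88 CPM against 0.602 and 0.302 CPM. Sox17, the classic definitive endoderm factor, read 6.43 and 13.2 CPM against 4.26 and 3.85 CPM and was not called (adjusted p = 0.0812). It was called lower with no filter on low counts (adjusted p = 0.00514), with DESeq2 (0.0438) and without wild-type replicate 1 (-1.64, 0.0329). Gata4 read 25.8 and 35.9 CPM against 16.5 and 13.8 CPM, and Gata6, on chromosome 18, read 15.4 and 17.4 CPM against 10.7 and 7.45 CPM. Both were called (adjusted p = 0.0319 and 0.0432) and lost the call with library totals and without either double knockout library. Both also lost it with the compared groups alone, with the day 4 libraries alone, on log2(TPM + 0.1), on TPM with no filter and without wild-type replicate 2. Gata6 further lost it with RLE size factors, with no filter on low counts, on log2(TPM + 1) and without wild-type replicate 1. Of 31 tested genes of visceral endoderm, the absorptive extraembryonic layer, 17 were lower and none higher, with a median of -1.27. Apob, the core protein of lipoproteins, read 199 and 133 CPM against 4.65 and 3.13 CPM (-5.41, SE 0.36, adjusted p = 3.5e-05). The endocytic receptor Lrp2 read 533 and 492 CPM against 133 and 131 CPM and its adaptor Dab2 245 and 207 CPM against 58.9 and 38.3 CPM. The list also holds basement membrane genes of parietal endoderm, and Lama1 (0.36), Lamb1 (0.16), Lamc1 (0.05), Sparc (0.45) and Col4a1 (0.81) were not called. The summed level of the list was close between groups, at 2918 and 3797 CPM in the wild type and 2885 and 2293 CPM in the double knockout. Without double knockout replicate 2 the lower counts were 6 for definitive and 7 for visceral endoderm, and without wild-type replicate 2 the visceral list had 14 lower and 3 higher. In bulk RNA, fewer cells of a type and less RNA per cell cannot be told apart, here and in all that follows.

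Epiblast genes were lower. Of 18 tested genes of the primed epiblast, the state that stem cells pass through on leaving naive pluripotency, 17 were lower and 1 was higher, with a median of -2.82. Fgf5 (chr5:98254184-98277030), the standard marker of that state, read 170 and 152 CPM in the wild type and 2.55 and 2.57 CPM in the double knockout (-5.97, SE 0.25, adjusted p = 7.76e-06). The 4 values leave a gap of more than 100 CPM, and the double knockout level was near the 0.926 and 0.79 CPM of day 0. Dnmt3b, a de novo DNA methyltransferase, read 1293 and 1453 CPM against 205 and 205 CPM (-2.74, SE 0.19, adjusted p = 3.5e-05), the day 0 values being 205 and 238 CPM. Otx2, an anterior homeobox factor, read 242 and 209 CPM against 62.7 and 59.4 CPM, above the 40.9 and 49.3 CPM of day 0. The zinc finger gene Sall2 (124 and 153 CPM against 14.6 and 14.5 CPM) and the growth factor gene Fgf15 (24.1 and 27.8 CPM against 1.04 and 0.812 CPM) had similarly tight replicates. Grhl2, an epithelial factor, was the member that rose (42.6 and 41.7 CPM against 93.3 and 63.7 CPM, adjusted p = 0.0247), and its call was lost without double knockout replicate 1. The lower count stayed between 15 and 17 over all alternatives.

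General pluripotency genes fell and a few naive genes rose. Of 14 tested core pluripotency genes 9 were lower and none higher, with a median of -0.83. Pou5f1 (Oct4) read 424 and 860 CPM in the wild type and 165 and 137 CPM in the double knockout (-2.09, SE 0.31, adjusted p = 0.00145). Nanog read 266 and 228 CPM against 152 and 127 CPM (-0.82, adjusted p = 0.00721). The call of Nanog was lost with the compared groups alone (edgeR adjusted p = 0.0613) and on log2(TPM + 1) (limma adjusted p = 0.0586). It was also lost on the other TPM scales and without double knockout replicate 2, where the difference was -0.7. Sox2, their partner, stood at 165 and 161 CPM against 142 and 96.7 CPM, and was not called (adjusted p = 0.168). Foxd3, a forkhead factor of the epiblast, fell from 12.4 and 28.2 CPM to 2.22 and 1.25 CPM. Of 22 tested naive genes 6 were higher and none lower, with a median of 0.64. Klf4 read 6.17 and 10.9 CPM against 35.6 and 31.4 CPM (1.97, SE 0.36, adjusted p = 0.00447), and Tfcp2l1 read 59.1 and 43.5 CPM against 156 and 129 CPM. These stayed below the day 0 levels of 137 and 176 CPM for Klf4 and 180 and 188 CPM for Tfcp2l1. Esrrb (0.62) and Zfp42 (0.85) were not called. Without double knockout replicate 1 only 1 naive gene was called, with no filter on low counts 12 were, and the core count fell to 5 without replicate 2 or with the compared groups alone.

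**Figure D4:**
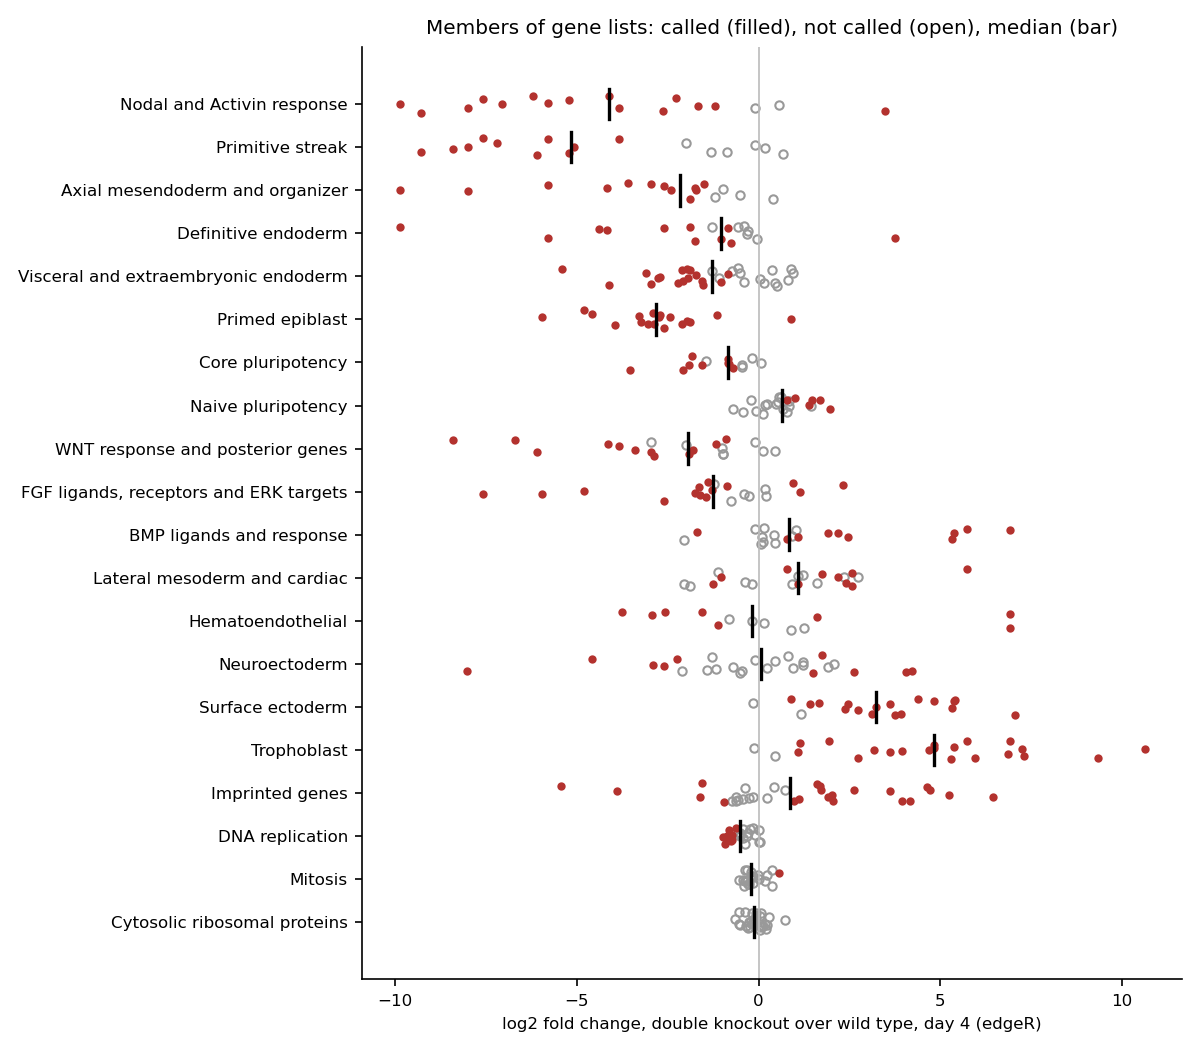
Log2 fold change (double knockout over wild type, day 4) of the members of 20 gene lists; filled points were called, open points were not, and the bar is the median of the tested members. Streak, Nodal response and primed epiblast lists lie to the left, trophoblast and surface ectoderm lists to the right, and ribosomal protein and mitosis genes sit around 0.

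Trophoblast genes were higher as a group. The trophoblast is the lineage that forms the placenta, and mouse embryonic stem cells rarely enter it. Of 22 tested trophoblast genes 20 were higher and none lower, with a median of 4.82, beside 10.8% of all genes higher. Of these 22 genes 2 had 0 counts in 1 of the compared groups and 1 had 1 to 3 counts. Prl3d1, given below, and the placental cathepsin gene Ctsq passed the filter on low counts only through the double knockout. They could hardly be called other than higher. Gata2 (chr6:88193891-88207032), a trophoblast and blood factor, read 0.595 and 1.33 CPM in the wild type and 109 and 125 CPM in the double knockout (6.92, SE 0.53, adjusted p = 5.7e-05). Gata3 read 0.617 and 0.808 CPM against 34.1 and 26.1 CPM (5.39, SE 0.42, adjusted p = 6.24e-05). Hand1, which drives giant cell formation, read 0.617 and 1.69 CPM against 60.6 and 62.7 CPM (5.74, SE 0.44, adjusted p = 6.03e-05). At these 3 factors the wild-type libraries at day 4 and at day 0 all lie below 3 CPM, and the double knockout libraries are apart from both. The X-linked placental homeobox genes Rhox6 and Rhox9 rose from 1.74 and 2.09 CPM to 190 and 260 CPM and from 0.846 and 1.16 CPM to 132 and 178 CPM. Esx1, another placental homeobox gene of the X chromosome, rose from 1.39 and 2.42 CPM to 48.4 and 59.3 CPM, and Plac1 from 0.457 and 0.285 CPM to 51.6 and 68.5 CPM. Prl3d1, the placental lactogen of giant cells, was at 0 counts in both wild-type libraries and at 3.51 and 5.98 CPM in the double knockout, at least 134-fold higher with the wild type at 3 counts over the group. Tpbpa, a spongiotrophoblast marker, was likewise at 0 in the wild type and at 1.41 and 2.48 CPM, at least 54.8-fold higher; Prl3d1 and Tpbpa were named after their values were seen. Cdx2, which specifies trophoblast stem cells, stood at 0.983 and 1.62 CPM against 1.91 and 1.67 CPM and was not called (adjusted p = 0.69), nor was Mmp9 (-0.13). The summed level of the list was 757 and 620 CPM in the wild type and 7785 and 12462 CPM in the double knockout. Peg10 alone made up most of that sum, at 655 and 501 CPM in the wild type and 6598 and 11117 CPM in the double knockout. The count of higher members stayed between 16 and 21 over all alternatives.

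**Figure D5:**
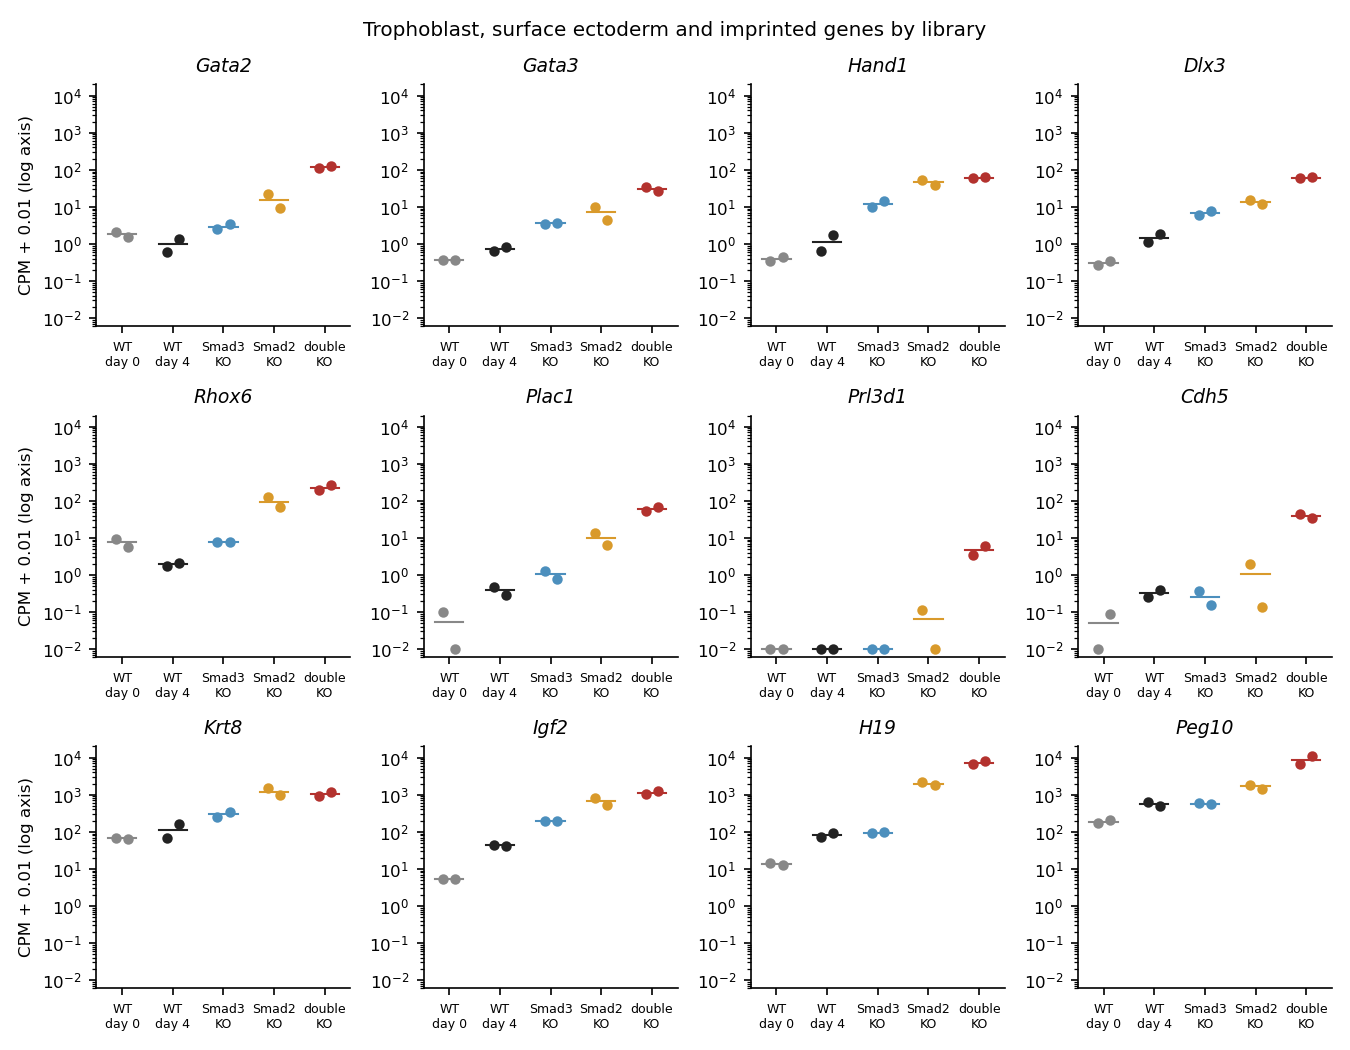
CPM plus 0.01 on a log axis for 12 trophoblast, surface ectoderm and imprinted genes in the 10 libraries; points are libraries and bars are means of the 2 libraries of a group. At Gata2, Gata3, Dlx3, Plac1, H19 and Peg10 both double knockout libraries lie above all others, while at Krt8 they overlap with the Smad2 knockout.

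Surface ectoderm genes, several of which trophoblast shares, rose too. Of 19 tested, 17 were higher and none lower, with a median of 3.22. Tfap2c, an AP-2 factor of both lineages, read 23.8 and 27.6 CPM against 172 and 169 CPM (2.73, SE 0.2, adjusted p = 4.02e-05). The homeobox gene Dlx3 read 1.1 and 1.81 CPM against 59.7 and 63.5 CPM (5.41, SE 0.31, adjusted p = 1.76e-05). Simple epithelial keratins were among the abundant genes: Krt8 read 67.7 and 159 CPM against 947 and 1163 CPM, Krt19 15.5 and 41.4 CPM against 349 and 423 CPM, and Krt7 4.05 and 8.7 CPM against 180 and 180 CPM. Krt5, a keratin of stratified skin (1.18), and the splicing factor Esrp1 (-0.16) were not called. Without double knockout replicate 2 the count was 11, and the median ranged from 1.22 to 3.64 over the alternatives.

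Promoters of Gata3 and Krt7 are shown because both genes rose with the AP-2 genes and both have an entry in the RefSeq promoter table with the AP-2 motif GCCNNNGGC, which reads the same on both strands. They are printed as above, with that motif in capitals (the GATA motif AGATAA was searched on both strands as well and not found in these windows). Gata3 lies at chr2:9878551-9878850 (minus strand), with 3 AP-2 motifs at -246, -231 and -221, and Krt7 lies at chr15:101412153-101412452 (plus strand), with 2 at -146 and -70.
Gata3: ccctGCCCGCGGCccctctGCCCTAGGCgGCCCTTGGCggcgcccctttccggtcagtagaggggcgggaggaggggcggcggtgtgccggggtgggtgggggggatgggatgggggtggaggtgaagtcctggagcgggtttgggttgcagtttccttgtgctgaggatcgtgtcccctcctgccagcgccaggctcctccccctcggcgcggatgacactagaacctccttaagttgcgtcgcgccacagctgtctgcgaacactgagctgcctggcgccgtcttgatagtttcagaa
Krt7: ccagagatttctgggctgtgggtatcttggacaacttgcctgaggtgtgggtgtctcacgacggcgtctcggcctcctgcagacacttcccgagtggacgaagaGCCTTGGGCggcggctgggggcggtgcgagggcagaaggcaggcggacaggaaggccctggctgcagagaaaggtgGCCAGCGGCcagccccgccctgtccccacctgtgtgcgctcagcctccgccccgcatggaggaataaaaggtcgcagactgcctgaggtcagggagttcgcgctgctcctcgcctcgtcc
The AP-2 motif was found in 6 of 16 trophoblast genes and 4 of 10 surface ectoderm genes that the table holds, in 16.6% of all promoters, and in 27.8% of the 12924 tested genes with an entry. The GATA motif was in 1 of the 16 trophoblast genes, in 11.2% of all promoters and in 8.2% of those tested genes. Hand1, Rhox6, Rhox9, Dlx3, Tfap2c and H19 had no entry.

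Imprinted genes, which are expressed from 1 parental copy and of which many act in placental growth, changed in both directions, mostly upwards. Of 32 tested, 16 were higher and 5 lower, with a median of 0.86. H19 (chr7:142575529-142578143), a noncoding RNA of the maternal copy, read 72.5 and 94.7 CPM in the wild type and 6579 and 8104 CPM in the double knockout (6.46, SE 0.26, adjusted p = 7.76e-06). Its neighbour Igf2 (chr7:142650766-142666816), a fetal growth factor gene of the paternal copy, read 44.1 and 42.3 CPM against 1051 and 1230 CPM (4.72, SE 0.24, adjusted p = 1.49e-05). Peg10 (chr6:4747306-4760517), a retrotransposon-derived gene needed for the placenta, read 655 and 501 CPM against 6598 and 11117 CPM (3.94, SE 0.31, adjusted p = 6.04e-05). All 3 rose far beyond the spread of either pair. The falls were as clear. Grb10, a growth-restraining adaptor, read 233 and 214 CPM against 13.8 and 15.9 CPM (-3.91, adjusted p = 9.48e-05). Magel2 read 15.1 and 29.8 CPM against 0.561 and 0.464 CPM (-5.44, adjusted p = 8.64e-05), and Snrpn read 321 and 345 CPM against 105 and 112 CPM (-1.62, adjusted p = 0.000156). Counts stayed between 13 and 16 higher and between 3 and 6 lower over the alternatives. Enzymes that set and read DNA methylation, background to imprinting, moved both ways (4 of 11 higher and 3 lower, and 2 higher without double knockout replicate 2): Dnmt3a fell (163 and 209 CPM against 93.6 and 75.5 CPM) and Dnmt3l, a cofactor of the de novo enzymes, rose (66.8 and 90.6 CPM against 243 and 187 CPM), as did Zfp57, which guards imprints (46.1 and 39.8 CPM against 115 and 99.7 CPM).

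Signals other than Nodal were read from ligands and target genes. Among Wnt response and posterior genes 12 of 20 tested were lower and none higher, with a median of -1.96. The list shares members with those above, among them T of the streak list and Lef1 of the primed epiblast list. Lef1, a transcriptional effector, read 29.6 and 34.5 CPM against 4.57 and 4.06 CPM (-2.89, adjusted p = 0.000465), Tcf7 144 and 147 CPM against 75.9 and 54.1 CPM, and the agonist Rspo3 8.25 and 5.99 CPM against 0.0831 and 0.0464 CPM. Without either double knockout library 2 Wnt genes were called. In the FGF list 11 of 20 were lower and 3 higher, with a median of -1.25 (1 higher without double knockout replicate 1). Dusp6, the ERK phosphatase that serves as a readout of the pathway, fell from 116 and 121 CPM to 22 and 16.8 CPM (-2.61, SE 0.2, adjusted p = 6.04e-05). Dusp6 is also in the primed epiblast list, and Fgf8, another member, is in the streak list. The receptor gene Fgfr2, which trophoblast uses, rose from 29.8 and 27.8 CPM to 64.9 and 62.5 CPM. In the BMP list 9 of 20 were higher and 1 lower, with a median of 0.85. The steepest rises there, Gata2, Gata3, Hand1 and Dlx5, also belong to the trophoblast or surface ectoderm lists. Of the general BMP targets Id2 rose (9.35 and 10.0 CPM against 52.8 and 54.0 CPM), while Id1 (0.93), Id3 (0.43), Smad6 (0.09) and Smad7 (-0.11) were not called. Bmp4 read 3.59 and 5.44 CPM against 8.95 and 10.1 CPM, and Bmp2, the member that fell, 7.43 and 7.25 CPM against 1.93 and 2.6 CPM. Among Smad genes of the BMP branch, Smad1 fell (28.7 and 29.3 CPM against 11.9 and 11.5 CPM) and Smad9 rose (0.549 and 0.428 CPM against 2.12 and 1.53 CPM). Bmp2 lost the call without either double knockout library and without wild-type replicate 1, and Smad9 without double knockout replicate 1. Id2 and Bmp4 are named after their values were seen, as are all genes given here as not called that are not in the panel of key genes.

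Retinoic acid genes split, with 6 of 17 higher and 5 lower, beside 10.8% of all genes higher and 12.3% lower. The lower share of the cholesterol synthesis genes below is near that of all genes. The receptor Rxra rose from 17.3 and 34.1 CPM to 104 and 99.8 CPM, and the retinol importer Stra6 from 0.983 and 2.23 CPM to 9.18 and 12.1 CPM. Rxrg fell from 3.2 and 5.42 CPM to 0.228 and 0.209 CPM, and the reductase Dhrs3 from 9.7 and 13.0 CPM to 1.47 and 2.04 CPM. In the Notch list 4 of 17 were lower and 1 higher. Hes1, its usual target, fell from 31.7 and 31.9 CPM to 10.9 and 8.19 CPM, and the ligand Dll3 from 4.48 and 10.8 CPM to 1.04 and 0.557 CPM. Dll4 (0.252 and 0.38 CPM against 0.997 and 0.812 CPM) lost its call without either double knockout library. Without wild-type replicate 2 the Notch list had 5 higher, and without either double knockout library 2 lower. Germ cell genes had 4 of 14 higher and 1 lower, and cholesterol synthesis genes 1 of 23 higher and 3 lower (4 higher without wild-type replicate 2, and 1 lower without either double knockout library).

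Mesoderm, blood vessel and neural lists were split, beside shares of 10.8% higher and 12.3% lower over all genes. Lateral mesoderm and cardiac genes had 8 of 21 higher and 2 lower, with a median of 1.09. On the log2(TPM + 1) scale, where 10 were tested, 4 were higher and 1 lower, with a median of 0.33. Hand1 led them, followed in adjusted p by Meis1 (0.663 and 0.523 CPM against 3.51 and 3.55 CPM) and Msx2 (2.13 and 2.42 CPM against 10.4 and 10.6 CPM), while Kdr (-0.18) and Pdgfra (-0.37), receptors of early mesoderm, were not called. Without either double knockout library 5 were higher. Of 13 tested hematoendothelial genes 3 were higher and 5 lower (3 lower without either double knockout library). Cdh5, VE-cadherin, read 0.252 and 0.38 CPM against 42.8 and 34.3 CPM (6.92, SE 1.02, adjusted p = 0.00147) and Gata1 1.17 and 1.26 CPM against 3.34 and 4.06 CPM. Lower were the blood factor genes Lmo2 at 2.4 and 2.07 CPM against 0.208 and 0.116 CPM, Tal1 at 0.663 and 0.927 CPM against 0.145 and 0.116 CPM, and Etv2 at 1.39 and 3.38 CPM against 0.436 and 0.186 CPM. Pecam1 (0.88), Tek (0.14) and Kdr were not called, nor were Tie1 and Sox18, the other endothelial genes of the list. Of 26 tested neuroectoderm genes 5 were higher and 5 lower, with a median of 0.06. Sox1 (0.503 and 0.309 CPM against 0.955 and 0.626 CPM) and Pax6 (1.07 and 0.88 CPM against 1.33 and 0.951 CPM) were low in all 4 libraries and not called. Sox3 fell from 5.69 and 15.3 CPM to 0.54 and 0.325 CPM, Nes from 120 and 132 CPM to 23.9 and 17.6 CPM, and Zic2 from 86.2 and 127 CPM to 15.4 and 13.0 CPM, each of which the epiblast also expresses. Irx3 rose from 0.549 and 1.81 CPM to 21.7 and 17.8 CPM. The count of higher neural genes was 1 without double knockout replicate 1, 2 without replicate 2 or without wild-type replicate 2, and 3 without wild-type replicate 1.

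Adhesion genes changed singly. Cdh2, N-cadherin, on chromosome 18, fell from 59.0 and 54.8 CPM to 2.57 and 4.78 CPM (-3.95, adjusted p = 0.000579), Zeb2 fell from 10.8 and 7.16 CPM to 0.727 and 1.32 CPM, and Zeb1, also on chromosome 18, rose from 2.33 and 1.78 CPM to 7.23 and 6.94 CPM. Cdh1, E-cadherin, was not called (-0.56). Of 18 genes of epithelial-mesenchymal transition 5 were lower and 3 higher, against 3 lower and 5 higher without wild-type replicate 2 and 3 lower without double knockout replicate 2. Of 25 collagen, laminin and integrin genes 4 were higher and 3 lower, shares near the 10.8% higher and 12.3% lower of all genes, and the number higher was 12 without wild-type replicate 2 and 1 without double knockout replicate 2. Nid1, a basement membrane linker, rose from 40.9 and 39.8 CPM to 174 and 186 CPM (2.16, SE 0.24, adjusted p = 0.000382), and the type IV collagen gene Col4a6 fell from 2.56 and 2.38 CPM to 0.208 and 0.186 CPM. Among 14 fibroblast genes 4 rose (7 without wild-type replicate 2) and 3 fell. Postn, a matrix protein, rose from 0.137 and 0.119 CPM to 9.82 and 8.47 CPM, and Dcn fell from 1.53 and 0.666 CPM to 0.0415 and 0.0464 CPM.

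Housekeeping lists had few calls, and those of replication, stress and immunity had more. Over all genes the shares were 10.8% higher and 12.3% lower. None of 28 ribosomal protein genes was called in either direction, with log2 fold changes from -0.64 to 0.72, and none of 13 mitochondrially encoded genes, whose median was -0.61 (7 were lower with no filter on low counts, 3 with DESeq2 and 6 without wild-type replicate 2). At an unadjusted p under 0.05 2 ribosomal protein genes and 4 mitochondrial genes passed, and without wild-type replicate 2 the ribosomal protein list had 5 higher and 2 lower (3 lower without wild-type replicate 1). Of 22 mitotic genes only Kif23 was called (0.55, adjusted p = 0.0476), and it lost the call in 8 of 17 alternatives, among them the replicate block (adjusted p = 0.0576) and each fit without 1 double knockout library. Without wild-type replicate 2 that list had 4 lower. Of 24 DNA replication genes 10 were lower, all by less than 2-fold. Pcna, the replication clamp, read 217 and 216 CPM against 130 and 131 CPM (-0.73, adjusted p = 0.00694), and Tyms, thymidylate synthase, 66.8 and 60.9 CPM against 29.4 and 35.7 CPM. That count was 3 with the compared groups alone and 1 and 2 without double knockout replicate 1 and 2. Among 25 genes of glycolysis and hypoxia 8 were higher and none lower, with 5 and 4 higher without double knockout replicate 1 and 2 and 4 lower without wild-type replicate 1. Ndrg1, a hypoxia target, rose from 67.2 and 76.2 CPM to 466 and 581 CPM (2.87, SE 0.2, adjusted p = 3.77e-05) and Vegfa from 32.9 and 47.1 CPM to 160 and 152 CPM, while the glycolytic enzymes Gapdh (-0.07), Pgk1 (-0.55) and Ldha (-0.63) were not called. Among 20 p53 targets 7 were higher and 1 lower, with 4 higher without double knockout replicate 1 and 11 without wild-type replicate 2. Btg2 rose from 55.8 and 54.7 CPM to 130 and 119 CPM, and Pmaip1, a chromosome 18 gene, fell from 116 and 85.8 CPM to 37.5 and 30.0 CPM. In the interferon and MHC class I list 10 of 22 were lower and 2 higher, with a median of -0.95, and 6 were lower without double knockout replicate 1. The immunoproteasome subunit Psmb8 fell from 9.67 and 15.5 CPM to 0.374 and 0.232 CPM (-5.35, SE 0.42, adjusted p = 6.19e-05) and the factor Irf1 from 115 and 139 CPM to 14.0 and 12.2 CPM (-3.28, SE 0.24, adjusted p = 4.02e-05), whereas B2m (0.33) was not called. Early cleavage genes, a sign of a rare stem cell state, had no call among 11 with edgeR (1 at an unadjusted p under 0.05, and 1 with DESeq2).

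The largest changes were ranked among called genes whose higher group reached 5 CPM. Among the 12 largest rises 5 were serpins of the Serpinb9 cluster on chromosome 13, near copies of each other among which the authors' counting may have split reads. Serpinb9e read 0.229 and 0.285 CPM against 58.1 and 67.1 CPM (7.91, SE 0.85, adjusted p = 0.000475), and Serpinb9g was at 0 counts in the wild type against 18.1 and 17.1 CPM, at least 504-fold higher. The placental cathepsin Ctsj was at 0 counts against 5.81 and 9.97 CPM, at least 222-fold higher, and the prolactin-family gene Prl2c5 at 0 counts against 3.11 and 7.68 CPM, at least 151-fold higher. Outside such families, Pparg, a nuclear receptor of fat and placenta, rose from 0.114 and 0.143 CPM to 24.5 and 33.6 CPM (7.79, SE 0.52, adjusted p = 3.39e-05). Olr1, a scavenger receptor, rose from 0.0229 and 0.0713 CPM to 17.9 and 18.5 CPM. Adgrf5, an adhesion receptor, was among the smallest adjusted p (1.44e-05) at 2.17 and 1.66 CPM against 58.4 and 58.9 CPM. Downwards the rule named, beside the streak genes above, the potassium channel gene Kcnj3 (64.8 and 44.3 CPM against 0.311 and 0.418 CPM), Trim67 (25.2 and 33.6 CPM against 0.187 and 0.0464 CPM) and the Y-linked gene Uty (28.7 and 18.4 CPM against 0.353 and 0 CPM). Enpp2 (chr15:54838901-54952892), which makes lysophosphatidic acid, read 66.4 and 48.5 CPM against 0.644 and 0.58 CPM (-6.54, SE 0.27, adjusted p = 7.76e-06), and the kinase gene Pim2, on the X chromosome, read 552 and 693 CPM against 35.1 and 38.2 CPM (-4.09, SE 0.2, adjusted p = 1.49e-05).

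Whether the double knockout differed from the loss of 1 Smad alone was tested directly. Against the Smad3 knockout 3025 genes (15.5%) differed, 1466 higher (7.53%) and 1559 lower (8.01%), and against the Smad2 knockout 7715 (39.6%), 3998 higher (20.5%) and 3717 lower (19.1%). The Smad2 knockout comparison depends on the scale. On log2(TPM + 1) its median over all genes was 0.65, 91.3% of its calls were higher in place of 51.8%, and 874 of the 7715 calls changed sign, and with library totals 70.7% of calls were higher. In the Smad2 knockout 14.35 and 13.64% of counts fell on ribosomal protein genes. Genes said to differ from the Smad2 knockout are therefore those whose call held in all 17 alternatives. Lefty1 at 20.9 and 20.2 CPM in the Smad2 knockout and 7.95 and 13.0 CPM in the Smad3 knockout was lower still in the double knockout, by -5.3 (adjusted p = 0.000659) and -4.33 (adjusted p = 0.0021). Fgf5 at 45.6 and 30.4 CPM and at 73.1 and 74.1 CPM was also lower in the double knockout, with differences of -3.89 (SE 0.23, adjusted p = 7.58e-05) and -4.84 (SE 0.24, adjusted p = 3.76e-05). Gata2 was higher in the double knockout than in either, by 2.91 (SE 0.42) over the Smad2 knockout at 21.6 and 9.6 CPM and by 5.32 (SE 0.48) over the Smad3 knockout at 2.49 and 3.38 CPM. H19, at 2213 and 1782 CPM in the Smad2 knockout and 90.6 and 99.7 CPM in the Smad3 knockout, differed by 1.88 (adjusted p = 0.000567) and 6.27 (adjusted p = 2.01e-05). Cdh5 at 1.99 and 0.128 CPM and at 0.355 and 0.148 CPM, and Adgrf5 at 2.54 and 2.13 CPM and at 3.15 and 2.84 CPM, were higher in the double knockout by 5.22 and 4.65 over the Smad2 knockout and by 7.22 and 4.29 over the Smad3 knockout.

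At other genes no difference from the Smad2 knockout was called. Krt8 read 1483 and 960 CPM in the Smad2 knockout against 947 and 1163 CPM in the double knockout, a difference of -0.21 (SE 0.37, adjusted p = 0.67) that changed sign in 6 of 17 alternatives. Hand1 read 53.5 and 39.8 CPM in the Smad2 knockout and differed by 0.4 (SE 0.35, adjusted p = 0.385), called in 3 of 17 alternatives. Cer1 was at 0 and 0.0427 CPM in the Smad2 knockout, as near to 0 as in the double knockout, while the Smad3 knockout kept 3.13 and 2.74 CPM. A p above the threshold does not show that these levels were equal. Gata4 and Gata6 went the other way. They read 4.87 and 2.58 CPM and 1.93 and 1.34 CPM in the Smad2 knockout and were higher in the double knockout by 2.02 (SE 0.31, adjusted p = 0.00151) and 2.47 (SE 0.28, adjusted p = 0.000564). Against the Smad3 knockout neither was called (-0.79 for Gata4, adjusted p = 0.103, and -0.12 for Gata6, adjusted p = 0.818). Over all genes, 20.5% were higher and 19.1% lower than in the Smad2 knockout, and 7.53% and 8.01% than in the Smad3 knockout. The visceral endoderm list had 14 of 31 genes higher and 1 lower than in the Smad2 knockout, with a median of 0.95 (0.65 to 1.6 over the alternatives). Than in the Smad3 knockout, 14 of its genes were lower and 1 higher. The trophoblast list had 16 of 22 higher and 2 lower than in the Smad2 knockout (8 to 20 higher over the alternatives) and 18 higher and none lower than in the Smad3 knockout. These comparisons share the double knockout libraries with that against the wild type.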

How the data were processed

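The authors deposited 1 RSEM table per library with an expected count and a TPM per gene. The submitters' processing notes name FastQC 0.11.5, STAR, Bowtie2, RSEM, HOMER and mm10, with no role or order; other versions and the strand setting are not given in the sources used here. Deposited expected counts were rounded and fitted in edgeR 4.0.16 (R 4.3.3) with TMM factors and its expression filter, in 1 quasi-likelihood fit of 10 libraries in 5 groups (19470 genes tested, residual df 5, common biological coefficient of variation 0.248), which lets the 2 libraries of a group borrow the spread of the others. Benjamini-Hochberg adjustment ran over all genes tested. Counts of 19470 genes were also simulated with only 100 genes changed 2-fold and 100 changed 4-fold between double knockout and wild type. The fit called 18% of the 2-fold and 76% of the 4-fold changes. Far more genes were called in the data, which loosens the adjusted cut, so these shares are not detection rates for this comparison. Alternatives used DESeq2 1.42.0, and limma 3.58.1 on log2 values of the deposited TPM plus 1 or 0.1. Counting intervals are 95% exact and, like floors of 3 counts per group, cover counting error only. Replicate numbers did not pair the wild-type and double knockout libraries. Named genes are a panel of 34, the 3 members of each of 37 lists with the smallest adjusted p in each direction, the 12 largest rises and falls at 5 CPM or more, and the 3 smallest adjusted p in each direction. Members and lists were chosen with earlier results of these data known. Some results are not reported here.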

Additional observations from a re-analysis of the deposited data

How the results depend on the processing

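The 17 alternatives changed another normalization, filter, sample set, tool or scale, or left out 1 library. Genes called between double knockout and wild type (4506) numbered 2778 with the compared groups alone and 2743 on log2(TPM + 0.1), and 2126 to 6051 with 1 library left out. Genes called higher ranged from 1036 to 3164 with 1 library left out. Genes called lower numbered 1296 with the compared groups alone, 1021 on log2(TPM + 1), 921 on log2(TPM + 0.1) and 1412 on TPM with no filter, and 1017 to 2887 with 1 library left out. Against the Smad2 knockout the count was 4924 with a gene length offset and 3693 to 6270 with 1 library left out. Against the Smad3 knockout it was 6498 with the compared groups alone, 1694 on log2(TPM + 0.1) and 1028 to 1235 with 1 library left out. With the replicate number as a block 4571 genes were called against the wild type, 7872 against the Smad2 knockout and 3036 against the Smad3 knockout. The block ended the call of Kif23 and Fgfr3 among named genes. Same-numbered libraries deviated together between the 4 groups other than the double knockout (r from 0.11 to 0.51), which follow the series of file names, but not between those and the double knockout (r from -0.18 to -0.04), so the wild type and double knockout share only a number. With the file-name series as a covariate 5289 genes were called. Of 168 named genes 162 were called, 116 of them in every alternative that tested them (107 in all 17 and 9 in 14 or 15), and none of the called genes reversed. Pax6, not called, was at -0.05 without double knockout replicate 1 (edgeR adjusted p = 0.969) and at 0.44 without replicate 2. The cause of these changes was not tested. With 2 libraries a group, 2-fold changes can go uncalled, and the simulation does not give their share here.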

Other observations

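Gene families beyond the lists were picked after their values were seen. Their members are near copies, and how the authors' counting split reads among them is uncertain. Of 15 tested genes of the Rhox cluster, X-linked reproductive homeobox genes, 12 were higher and none lower in the double knockout than in the wild type. All 10 tested genes of the X-linked Xlr family were higher; Xlr3c read 0.434 and 0.309 CPM in the wild type and 27.6 and 28.7 CPM in the double knockout. All 8 tested genes of the prolactin family, hormones of the placenta, and all 4 tested placental cathepsins were higher, most from 0 or near 0 counts. These are 8 of 25 prolactin-family genes and 4 of 8 cathepsins; the others did not pass the filter on low counts. Most of those tested passed it only through the double knockout and could hardly be called other than higher, so their shared direction is no result about these 2 families. Of 9 galectin genes 6 were higher and 1 lower, with Lgals3 at 3.48 and 4.73 CPM against 121 and 138 CPM. Of 10 connexin genes 5 were higher and 3 lower. Of all genes tested 10.8% were higher and 12.3% lower. Of 733 tested genes of the X chromosome, which holds the Rhox and Xlr genes, 158 were higher and 138 lower. Keratins had 7 of 21 higher and none lower, claudins 1 of 17 higher and 3 lower, and protocadherins 1 of 34 higher and 3 lower, so the claudin and protocadherin shares are not set apart from those of all genes. Members of the other families also passed the filter on low counts in some cases only through the double knockout, so all these counts are descriptions.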
